A study of Homo sapiens with 12 samples.

Results

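The nuclear genes of the mitochondrial ribosome were followed in CUTLL1 cells, which grew out of a human T-cell acute lymphoblastic leukaemia and carry a rearranged NOTCH1 gene. Members were the protein-coding genes whose symbol is MRPL or MRPS followed by a number, without a hyphen, and whose deposited value was at least 10 in at least 3 libraries. This gave 75 genes, 47 MRPL genes named for the large subunit and 28 MRPS genes named for the small subunit, out of 19281 genes kept at that level and 62069 identifiers in the table. Of 77 protein-coding genes with such a symbol, MRPL30 (mean value 7.15) and MRPS21 (listed at 0 in every library) stayed outside the level threshold, and MRPL53 (mean 290.0) was the lowest member inside it. All 75 members reached the minimum in all 12 libraries, so none entered through a single group.

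Poly-A RNA was sequenced from 4 groups of 3 libraries, namely 1 µM Compound E, a gamma-secretase inhibitor (GSI), for 12 h, its solvent DMSO for 12 h, GSI for 48 h and DMSO for 48 h. Gamma-secretase frees the active intracellular part of NOTCH1, and the comparison of treatments asks which transcripts depend on it. All groups come from the same line, the labels do not say whether the numbered replicates were separate cultures, and the p-values rest on the spread among these libraries alone. Depth was 73939612 to 160702764 reads per library, and at 12 h the GSI libraries were shallower than the DMSO libraries. NRARP, a NOTCH1 target used as a check of the labels, had a normalised read count of 21929.5 ± 4507 in libraries labelled GSI 12 h against 42352 ± 6407 in those labelled DMSO 12 h, and of 1701 ± 337 in GSI 48 h against 3030.0 ± 627 in DMSO 48 h (SD, n = 3 each). The NRARP levels thus differed more between the time labels than between the treatment labels, and every direction below is drawn from the labels as given. All 11 T-cell markers were expressed, with summed values of 512000 to 699000 per library. Of markers of other cells MS4A1 of B cells and EPCAM of epithelia were at 0 in every library, and the 4 B-cell markers summed to 662 to 3040, nearly all from CD79A. The myeloid, fibroblast and epithelial lists summed to at most 74.3 per library. The 3 erythroid markers summed to 12.7 to 37.9 in GSI 12 h against 4.42 to 12.4 in DMSO 12 h, and to 18.6 to 44.6 in GSI 48 h against 4.49 to 9.74 in DMSO 48 h. A list of 25 hypoxia response genes also moved with the GSI label (medians of the log2 fold change 2.31 at 12 h and 1.53 at 48 h). In it limma called 24 genes higher at 12 h (all genes higher, 10.1%) and 12 at 48 h (4.33%). Its median, given as log2 relative to each gene's mean over all libraries, for libraries 1, 2 and 3 was 1.82, 0.31 and 1.91 under GSI at 12 h, −0.93, −1.14 and −0.90 under DMSO at 12 h, 1.28, −0.25 and 0.69 under GSI at 48 h and −1.05, −1.09 and −0.78 under DMSO at 48 h. The GSI libraries numbered 2 therefore stood apart from the others of their groups, and the part of the hypoxia and erythroid genes and of depth in the results below was not tested.

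The mitochondrial ribosome, or mitoribosome, translates the few mRNAs of the mitochondrial genome into core subunits of the respiratory chain and the ATP synthase. Its small subunit reads the mRNA and its large subunit joins the amino acids and leads the new chain to the inner membrane. The ribosomal RNAs come from mitochondrial DNA, while every protein of the particle is encoded in the nucleus, made in the cytosol and imported. The members lie on 21 chromosomes, so their mRNA levels are read here from genes that share no single locus.

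Levels across members were compared per kilobase of exon in GENCODE 29, as the mean deposited value over all libraries divided by exon length. They spanned 129.8 per kb for MRPL38 to 12575 per kb for MRPS34, with a median of 1538 per kb, 1599 for MRPL genes and 1433 for MRPS genes. The highest large-subunit genes were MRPL51 (6794 per kb), MRPL3 (4899.9 per kb), which lies close to the peptidyl transferase centre, and MRPL14 (4472 per kb). The highest small-subunit genes after MRPS34 were MRPS26 (6301 per kb) and MRPS16 (3359.8 per kb). At the low end stood MRPL46 (159 per kb), MRPS17 (306 per kb) and MRPS18C (336 per kb). These levels depend on the annotated exons, and 40 members have exons that another gene also covers, 29 of them on the opposite strand. More than 25% of the exon length is shared in 10 members, among them MRPL12 (68.2%), MRPS18A (47%), MRPL38 (41.1%) and MRPS28 (35.8%), and MRPL51, MRPS17 and MRPS18C of those named above. Whether counting used strand is not given in the sources used here, so values of these genes are uncertain. The table lists 71 pseudogenes of the family, of which 3 were kept, and the highest, MRPS31P2, averaged 25.3.

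Because most members moved together in the comparisons below, their promoters were searched for 3 motifs linked to nuclear genes of mitochondria or to MYC, on both strands. These were CCGGAAG, the core bound by GABP and other ETS factors, the core of the NRF1 site, GCGC and TGCGC with any base between them, and the E-box CACGTG, bound by MYC with MAX. A promoter of 300 bases, from 250 before to 50 after the RefSeq start on GRCh38.p14, was found for 66 of the 75 members. None was found for MRPL15, the member with the largest fall at 12 h, which was therefore not searched. The ETS core was in 27 of these 66 promoters (40.9%), against 18.6% of 10840 promoters of protein-coding genes kept and 10.7% of all 27305 promoters in the table. It was in 16 of 40 large-subunit promoters (40%) and in 11 of 26 small-subunit promoters (42.3%). The NRF1 core was in 6 of 66 (9.09%, against 11.3% of the kept genes) and the E-box in 5 of 66 (7.58%, against 9.85%). At least 1 of the 3 motifs was in 53.0% of member promoters and 34.2% of those of kept genes. None of these motifs contains another. To show what such a promoter looks like, stretches of 120 bases are printed for the members with the largest falls at 12 h among those holding each motif wholly upstream of the start, 5′ to 3′ on the gene's strand, with all motif matches in capitals. MRPS12 had the largest fall of those holding the ETS core among the 66 members searched. It has the core from position −5 across the start and is not printed. MRPL20 carries the ETS core at both capital stretches and MRPL3 at position −32 from the start. MRPL36 carries the NRF1 core at position −110 and the E-box at −56, and MRPS33 the NRF1 core at −155, while MRPL49 holds the E-box at −245.
MRPL20 (chr1:1407294-1407413, - strand): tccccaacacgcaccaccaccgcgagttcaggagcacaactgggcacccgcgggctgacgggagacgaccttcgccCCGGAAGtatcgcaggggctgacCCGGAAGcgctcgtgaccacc
MRPL3 (chr3:131502972-131503091, - strand): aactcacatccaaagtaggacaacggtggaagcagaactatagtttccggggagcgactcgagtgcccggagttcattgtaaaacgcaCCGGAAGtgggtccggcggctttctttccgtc
MRPL36 (chr5:1799838-1799957, - strand): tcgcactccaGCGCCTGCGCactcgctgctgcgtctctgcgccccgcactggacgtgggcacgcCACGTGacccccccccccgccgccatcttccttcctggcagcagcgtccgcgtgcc
MRPS33 (chr7:141015043-141015162, - strand): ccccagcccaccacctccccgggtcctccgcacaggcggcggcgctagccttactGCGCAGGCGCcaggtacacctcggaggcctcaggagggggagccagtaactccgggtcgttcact
Members with the ETS core had a median log2 fold change of −0.39 at 12 h and −0.39 at 48 h between GSI and DMSO labels, against −0.32 and −0.31 for members without it. For the NRF1 core the medians were −0.33 and −0.39 with it, against −0.36 and −0.32 without it. For the E-box they were −0.25 and −0.33 with it, against −0.37 and −0.32 without it. None of these differences was tested. A match is a description of these letters in this window, and whether a factor binds there was not measured.

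At 12 h, 33 of 75 members fell and 0 rose in libraries labelled GSI relative to DMSO, 18 of 47 MRPL genes and 15 of 28 MRPS genes. Calls were made by limma at an adjusted p (Benjamini-Hochberg, all 19281 genes) below 0.05, and of all genes 11.4% were lower and 10.1% higher at that level. The median log2 fold change was −0.37 over members, −0.39 over MRPL genes and −0.31 over MRPS genes, against 0.00064 over all genes kept and −0.04 over protein-coding genes, so the typical member stood at 0.774 of its DMSO value. In total 69 members were below 0, and 10 were lower by more than 1.5-fold. The 3 GSI libraries lay below the 3 DMSO libraries in 36 members (all genes kept, 19.3%), and above them in 0. In this comparison 47 members had an unadjusted p under 0.05, and fewer cells with a transcript cannot be told apart from less of it per cell in bulk libraries. The number of falls was 8 without the DMSO library numbered 2, 8 without the GSI library numbered 1, 12 without the GSI library numbered 3 and 16 without the DMSO library numbered 3. It was 15 when only the 12 h groups entered the fit, and every one of these calls was again a fall. The shares of all genes called in these fits are not given here. The lower counts are therefore not shown to be particular to the members.

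Among large-subunit genes the fall was largest for MRPL15 (ENSG00000137547), whose protein is part of the core of the subunit. MRPL15 had 3086, 4621 and 3475 normalised reads in the GSI 12 h libraries, against 6120.2, 7398 and 6712 in the DMSO 12 h libraries. Every GSI library was below every DMSO library, and the GSI library numbered 2 was the highest of its group. Its log2 fold change was −0.87 ± 0.16 SE, adjusted p = 0.00496 (limma), and the adjusted p was at most 0.0294 with any library left out. MRPL1 (ENSG00000169288), a protein of the stalk by which spent tRNA leaves the ribosome, had 2244, 2924 and 2235 in GSI 12 h against 3457, 4584 and 4290.1 in DMSO 12 h. The groups again did not overlap (log2 fold change −0.74 ± 0.18 SE, adjusted p = 0.0126, limma), and the fall passed in 10 of 12 fits with a library left out (adjusted p up to 0.0587). MRPL12 (ENSG00000262814), the flexible stalk protein that also binds the mitochondrial RNA polymerase, which shares 68.2% of its exons with another gene, had 469, 676 and 322 in GSI 12 h against 692, 938 and 788 in DMSO 12 h. Here the highest GSI library, number 2, came close to the lowest DMSO library, and the log2 fold change was −0.77 ± 0.22 SE, adjusted p = 0.0273 (limma), with an adjusted p up to 0.109 when a library was left out. MRPL24 (−0.72, adjusted p = 0.0181), at the exit of the peptide tunnel, MRPL4 (−0.67, adjusted p = 0.00779), which lines that tunnel, MRPL20 (−0.67, adjusted p = 0.00938) and MRPL3 (−0.61, adjusted p = 0.0136) fell as well. MRPL24 passed in 8 of 12 fits with a library left out (adjusted p up to 0.0711, limma) and MRPL3 in 9 of 12 (up to 0.0605).

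Among small-subunit genes MRPS12 (ENSG00000128626), a protein of the decoding centre, fell most. MRPS12 had 2060.2, 2680.0 and 1562 normalised reads in GSI 12 h libraries, against 3429, 3912 and 3472 in DMSO 12 h libraries. The groups did not overlap, the log2 fold change was −0.81 ± 0.16 SE, adjusted p = 0.00603 (limma), and the adjusted p was at most 0.0294 with any library left out. MRPS2 (ENSG00000122140) had 1985, 2281 and 1887 in GSI 12 h against 2608, 2993 and 2870.4 in DMSO 12 h, with a smaller spread and a log2 fold change of −0.46 ± 0.10 SE, adjusted p = 0.00959 (limma). MRPS23 had 4035 ± 751 in GSI 12 h and 6104 ± 659 in DMSO 12 h (SD, n = 3 each; log2 fold change −0.61, adjusted p = 0.00988, limma). MRPS2 and MRPS23 kept an adjusted p under 0.05 with any library left out, the highest being 0.0456 and 0.0481. MRPS7, which binds the RNA of the head of the subunit, had a log2 fold change of −0.62 and MRPS34, the member with the highest level per kb, of −0.55. Both fell (adjusted p = 0.0174 and 0.0328, limma), and passed in 9 and 8 of 12 fits with a library left out (adjusted p up to 0.077 and 0.124).

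**Figure D1:**
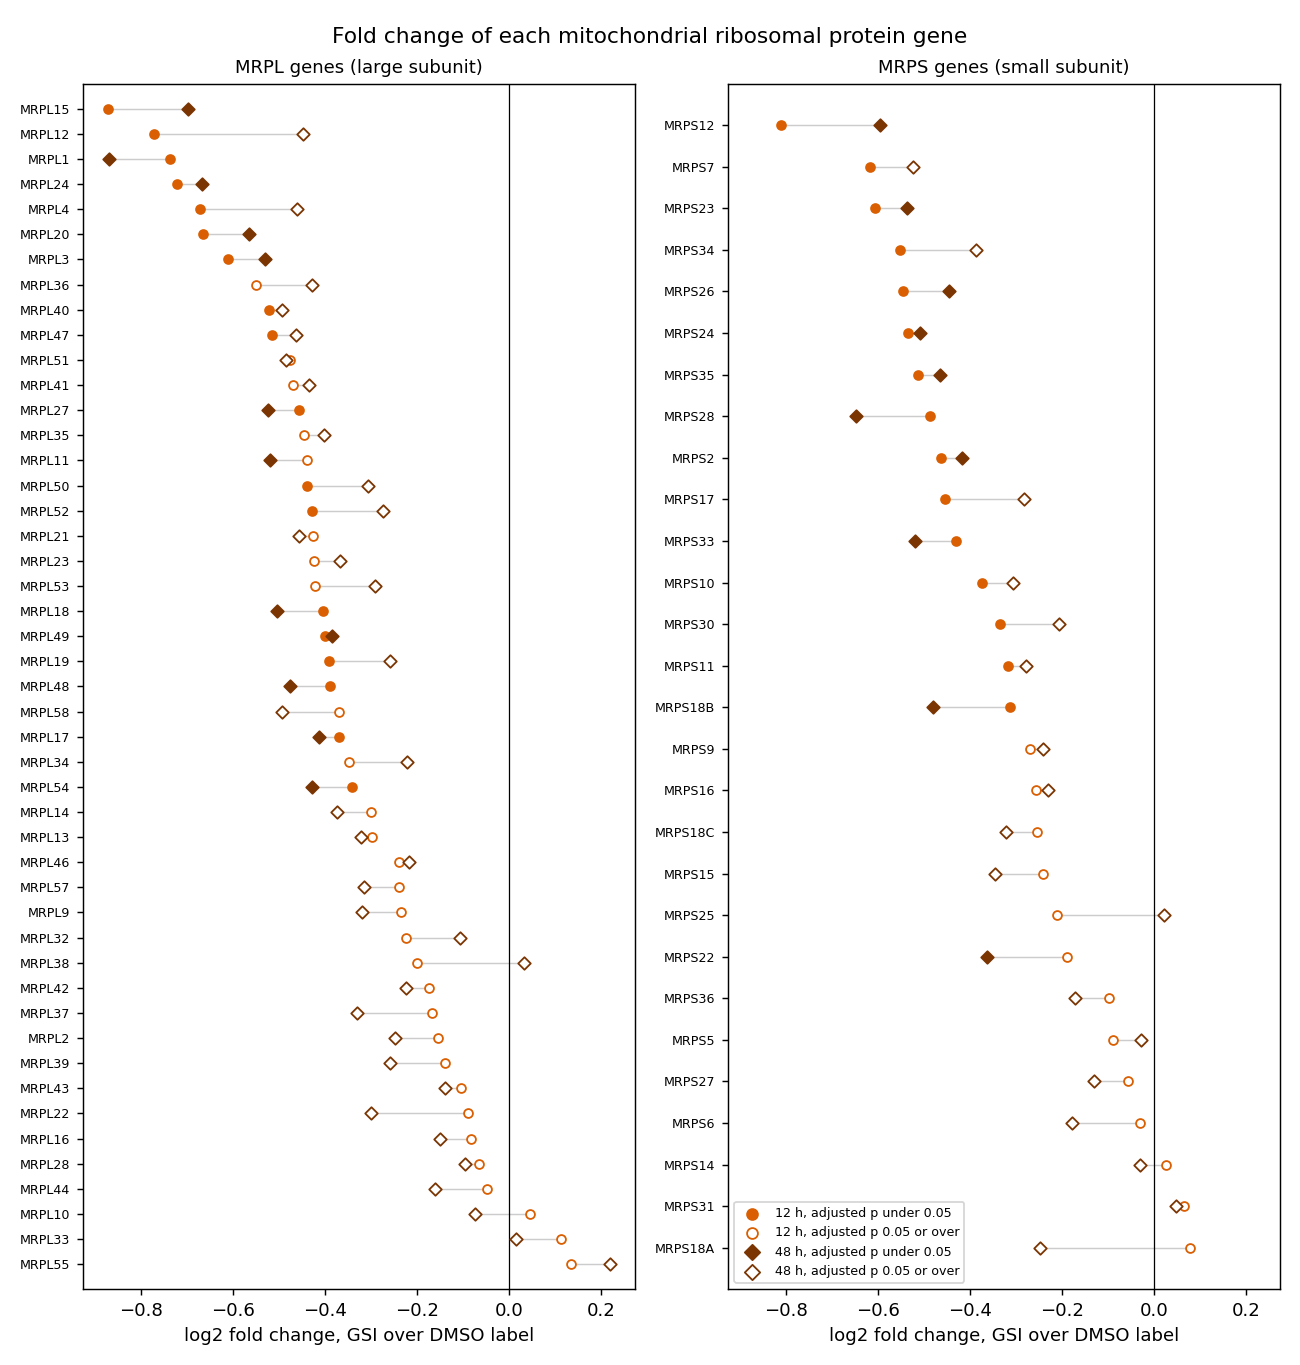
Log2 fold change (GSI over DMSO label, horizontal axis) of each of the 47 MRPL and 28 MRPS genes, sorted by the 12 h value, with circles for 12 h and diamonds for 48 h, filled where limma's adjusted p was under 0.05. Nearly all points lie left of 0, with MRPL15 lowest at 12 h (−0.87) and MRPL1 lowest at 48 h (−0.87), and no filled point lies right of 0.

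At 48 h, 22 of 75 members fell and 0 rose in libraries labelled GSI relative to DMSO, 12 MRPL and 10 MRPS genes, where 5.35% of all genes were called lower and 4.33% higher. The median log2 fold change was −0.33 over members, −0.37 over MRPL genes and −0.31 over MRPS genes, against −0.0039 over all genes kept. Here 70 members were below 0, 5 were lower by more than 1.5-fold, and the GSI libraries lay below the DMSO libraries without overlap in 48 members (all genes kept, 18.5%). Deviations of same-numbered libraries correlated only weakly at 48 h (0.103, 0.157 and 0.104), much as at 12 h (0.096, 0.272 and 0.068). With the replicate number as a block 50 members fell and 0 rose at 48 h, where 15.5% of all genes were called lower. The number of calls changed with single libraries. The shares of all genes called in those fits are not given here, so this change is not shown to be particular to the members. Limma called 0 members without the GSI 48 h library numbered 1 (31 at an unadjusted p under 0.05). It called 0 without that numbered 3 (32 at an unadjusted p under 0.05). Without the DMSO 48 h library numbered 1, 2 or 3 it called 1, 1 and 3. In these fits 53, 36 and 34 members had an unadjusted p under 0.05, against 50 with all libraries. Leaving out GSI 48 h number 2 gave 35 calls, and leaving out number 2 of both GSI groups gave 47. With all libraries edgeR called 21 members lower and DESeq2 31, both on the recovered reads.

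MRPL1 fell most at 48 h. It had 1595, 2375 and 1527 normalised reads in GSI 48 h libraries, against 2808, 3573 and 3516 in DMSO 48 h libraries. All 3 GSI values were below all 3 DMSO values, and the GSI library numbered 2 was again the highest of its group. The log2 fold change was −0.87 ± 0.18 SE, adjusted p = 0.0159 (limma), and the fall passed in 9 of 12 fits with a library left out (adjusted p up to 0.0865). MRPL15 had 2424, 3797 and 3094 in GSI 48 h against 4580.5, 5146 and 5149 in DMSO 48 h, without overlap, and a log2 fold change of −0.70 ± 0.16 SE, adjusted p = 0.0251 (limma). MRPS28 (ENSG00000147586), the counterpart of bacterial S1, had 854, 1027 and 818 in GSI 48 h against 1223, 1447 and 1564 in DMSO 48 h, again without overlap (log2 fold change −0.65 ± 0.16 SE, adjusted p = 0.0305, limma). The small-subunit gene with the smallest adjusted p was MRPS18B, which had 4096, 4682 and 4296 in GSI 48 h against 6148, 5809 and 6257 in DMSO 48 h. The spread within both MRPS18B groups was narrow, the groups were far apart, and the log2 fold change was −0.48 ± 0.09 SE, adjusted p = 0.0122 (limma). MRPL24 (−0.67), MRPS12 (−0.60), MRPL20 (−0.57) and MRPS23 (−0.54) also fell (adjusted p = 0.043, 0.0373, 0.0339 and 0.031, limma). As the counts without single libraries show, none of these genes kept an adjusted p under 0.05 in all 12 fits with a library left out, and the highest was 0.164 for MRPL24. MRPS7 (−0.52) was called with the replicate block (adjusted p = 0.00769) and, over all 12 libraries, not without it (adjusted p = 0.0539, limma). MRPL4 (−0.46, adjusted p = 0.014 with the block and 0.0574 without it) and MRPS34 (−0.39, adjusted p = 0.0435 with it and 0.14 without it) were called in the same way.

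**Figure D2:**
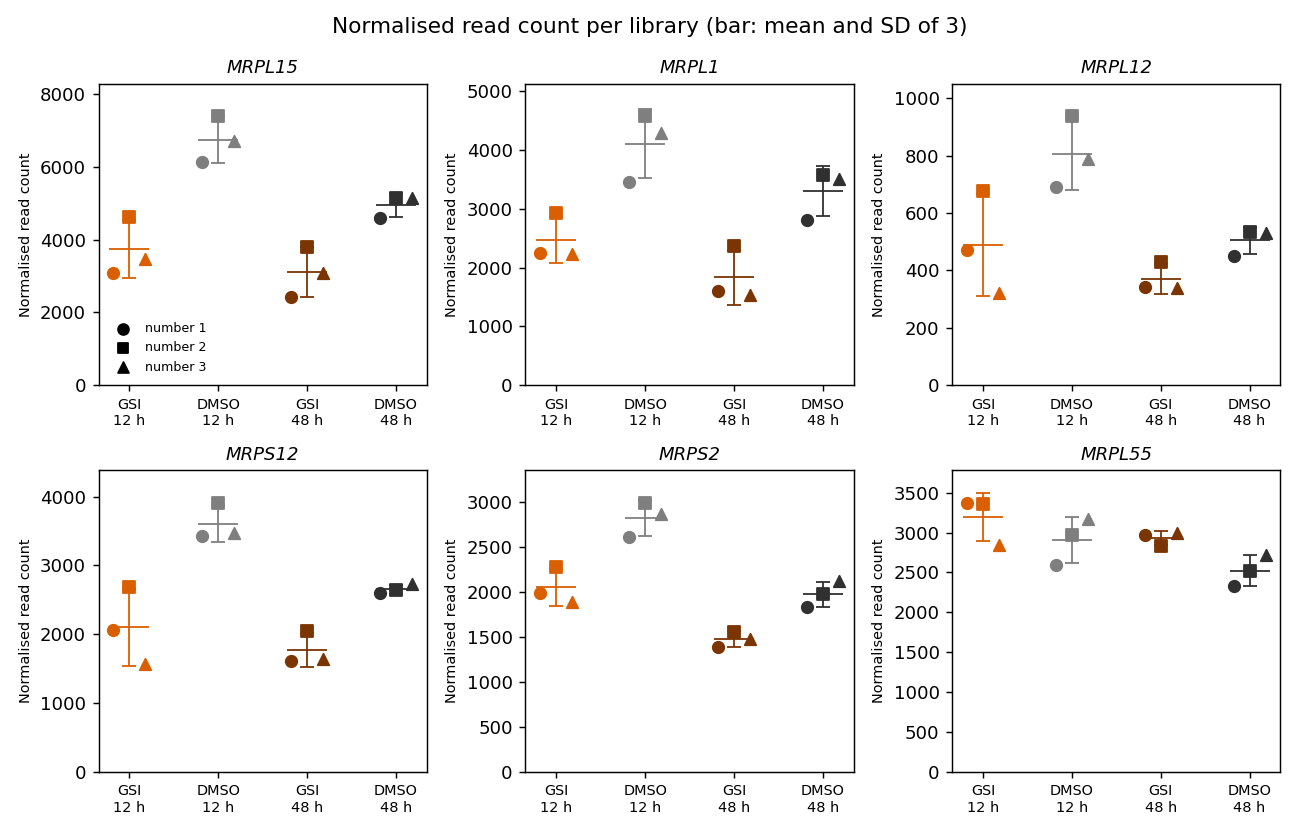
Normalised read count (vertical axis) of 6 members in each library of the 4 groups, with symbols for the replicate number and bars for the mean and SD of 3 libraries. MRPL15, MRPL1, MRPL12, MRPS12 and MRPS2 are lower under the GSI label than under the DMSO label at 12 h and at 48 h, while MRPL55 is not. The fall of MRPL12 at 48 h (log2 fold change −0.45) was not called, with the replicate block (adjusted p = 0.0725, limma) or without it.

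Across both times 67 members were below 0 in both treatment comparisons, and 20 were called lower in both. Besides those described above, the 20 include, listed for their calls, the large-subunit genes MRPL17 (−0.37 at 12 h and −0.41 at 48 h), MRPL18 (−0.41 and −0.50), MRPL27 (−0.46 and −0.52), MRPL48 (−0.39 and −0.48), MRPL49 (−0.40 and −0.39) and MRPL54 (−0.34 and −0.43). The small-subunit genes among them are MRPS24 (−0.54 and −0.51), MRPS26 (−0.55 and −0.45), MRPS33 (−0.43 and −0.52) and MRPS35 (−0.51 and −0.47). Another 13 were called at 12 h only and 2 at 48 h only, MRPL11 at the base of the factor-binding stalk (−0.44 at 12 h, −0.52 at 48 h) and MRPS22 (−0.19 at 12 h, −0.36 at 48 h). With the replicate block MRPL11 and MRPS22 were called at 12 h as well (adjusted p = 0.0122 and 0.041, limma). The difference between the treatment effects at 48 h and 12 h was tested directly. Limma called 0 members (1 at an unadjusted p under 0.05), as did edgeR, DESeq2 and the fit with a replicate block. Limma also called 0 of all 19281 genes, so this count is not particular to the members. The median of the difference over members was 0.015 on the log2 scale, and the calls at a single time are not shown to differ between times. The remaining 40 members were called in neither comparison.

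Members with a stated role outside or beyond the ribosome were followed whatever their values. MRPL58 is a peptidyl-tRNA hydrolase built into the large subunit that can free stalled chains. It had 1848 ± 256 in GSI 12 h and 2397 ± 394 in DMSO 12 h, and 1518 ± 189 in GSI 48 h and 2139 ± 257 in DMSO 48 h (SD, n = 3 each). Its log2 fold changes were −0.37 and −0.49 (adjusted p = 0.0879 and 0.0513, limma). With the replicate block the adjusted p was 0.00395 at 12 h and 0.00181 at 48 h (limma). MRPL41, reported to bind BCL2, was at −0.47 and −0.43 at the 2 times (adjusted p = 0.0631 and 0.109, and with the block 0.00513 at 12 h and 0.0108 at 48 h, limma). MRPL44, an RNase III-like protein, was at −0.047 and −0.16, with adjusted p = 0.753 and 0.268 (limma). The 3 relatives of bacterial S18 differed in their values. MRPS18B fell at both times (−0.31 and −0.48). MRPS18C was at −0.25 and −0.32 (adjusted p = 0.126 and 0.085, and with the block 0.021 at 12 h and 0.0102 at 48 h, limma). MRPS18A was at 0.078 and −0.25 (adjusted p = 0.706 and 0.23, and with the block 0.441 at 12 h and 0.0321 at 48 h, limma). Whether the 3 relatives differ from one another was not tested. MRPS16 was at −0.26 and −0.23 (adjusted p = 0.0662 and 0.121, and with the block 0.0223 at 12 h and 0.0436 at 48 h, limma). MRPS30, which structures of the mammalian particle place in the large subunit like MRPS18A, fell at 12 h (−0.34, adjusted p = 0.0466, limma), a call that passed in 2 of the 12 fits with a library left out (adjusted p up to 0.196).

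The members at the other end had values near or above 0. MRPL55 (ENSG00000162910), a protein found only in mitochondrial ribosomes, had 3375, 3363 and 2848 normalised reads in GSI 12 h libraries, against 2597, 2967 and 3168 in DMSO 12 h libraries. These groups overlapped (log2 fold change 0.13 ± 0.10 SE, adjusted p = 0.368, limma). At 48 h MRPL55 had 2972, 2831 and 2993 in GSI libraries, against 2326, 2519 and 2717 in DMSO libraries, which made it the single member with every GSI library above every DMSO library (all genes, 16.9%), although it did not pass the test (0.22 ± 0.10 SE, adjusted p = 0.173, limma). MRPL33 (0.11 and 0.016) and MRPS31 (0.065 and 0.048) were the other members above 0 at both times. At 48 h MRPL38 (0.033) and MRPS25 (0.021) were also above 0, with adjusted p = 0.884 and 0.882 (limma). In none of the 6 pairwise comparisons of groups were 12 members called, and they include MRPS36, since found to belong to the oxoglutarate dehydrogenase complex, with log2 fold changes of −0.10 at 12 h and −0.17 at 48 h.

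The medians of the large and the small subunit were close to each other. The median log2 fold change of MRPL genes minus that of MRPS genes was −0.073 at 12 h and −0.054 at 48 h, within −0.12 to −0.026 and −0.075 to −0.017 with each library left out. At 48 h it was 0.003 when MRPS30 and MRPS18A were counted with the large subunit. Within libraries, the difference between the subunit medians was −0.04, 0.01 and −0.026 in GSI 12 h, −0.0014, 0.023 and 0.02 in DMSO 12 h, −0.05, 0.04 and −0.076 in GSI 48 h and −0.03, 0.0096 and 0.0095 in DMSO 48 h. The GSI and DMSO libraries overlapped at both times, and all 12 values lay between −0.076 and 0.040. By contrast, the median over all members, relative to each gene's mean, was −0.13, 0.13 and −0.20 in GSI 12 h libraries, against 0.16, 0.37 and 0.31 in DMSO 12 h libraries. It was −0.40, −0.11 and −0.35 in GSI 48 h libraries, against −0.055, 0.10 and 0.13 in DMSO 48 h libraries. At each time every GSI library was below every DMSO library, and the GSI library numbered 2 was nearest to the DMSO libraries, as it was for the hypoxia genes. The members held 0.331 ± 0.0368% of all values in GSI 12 h libraries against 0.395 ± 0.0209% in DMSO 12 h, and 0.295 ± 0.0228% in GSI 48 h against 0.348 ± 0.0117% in DMSO 48 h.

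**Figure D3:**
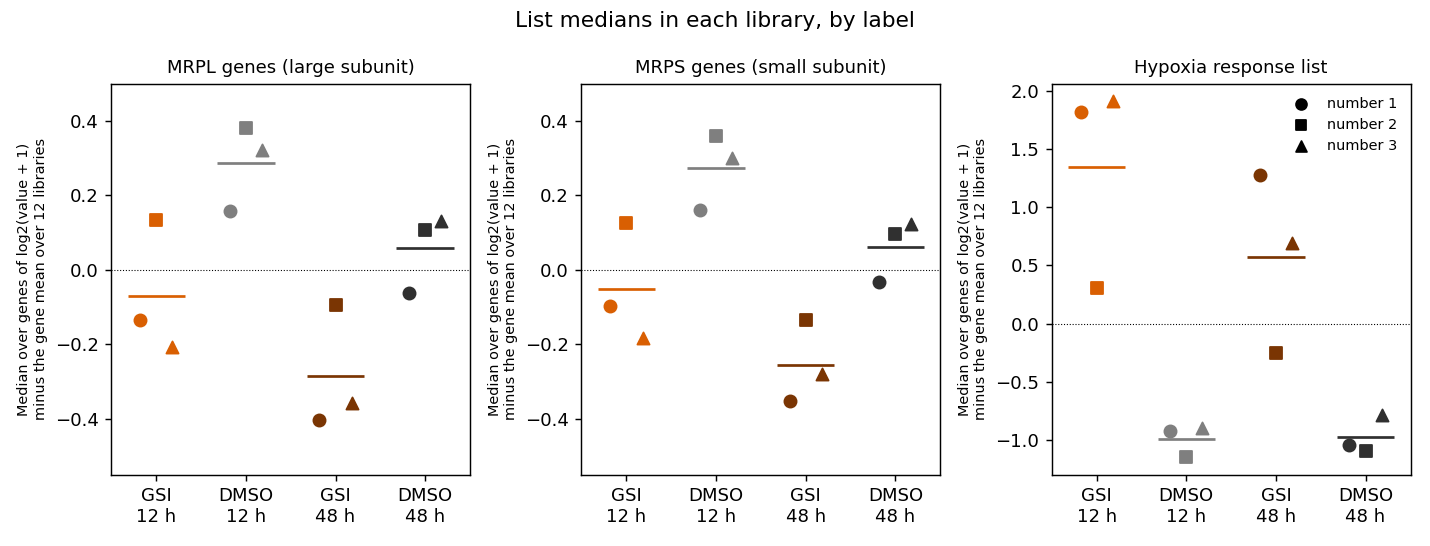
Median over genes of log2(value + 1) minus the gene's mean over the 12 libraries (vertical axis), for MRPL genes, MRPS genes and the hypoxia response list, in each library by group, with symbols for the replicate number and lines for group means. In both ribosomal panels each GSI library lies below the DMSO libraries of its time, and the GSI libraries numbered 2 stand nearest to the DMSO libraries in all 3 panels.

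The member medians were also lower at 48 h than at 12 h under either label. Without a replicate block few members passed the test, and with the block set within each treatment most did. The counts given first are those without a block. In GSI libraries the median log2 fold change of 48 h over 12 h was −0.22 and 2 members fell, MRPS2 (−0.47, adjusted p = 0.0206) and MRPS18B (−0.40, adjusted p = 0.0243, limma), where 2.37% of all genes were called lower and 1.62% higher. In DMSO libraries the median was −0.21 and 4 members fell, where 2.51% of all genes were called lower and 2.03% higher. The GSI 48 h libraries lay below the GSI 12 h libraries without overlap in 17 members (all genes, 9.91%), and the DMSO 48 h libraries below the DMSO 12 h libraries in 30 (13.1%). The members that fell in DMSO were MRPS2 (−0.52, adjusted p = 0.0125), MRPL4 (−0.55, adjusted p = 0.0449), MRPS26 (−0.43, adjusted p = 0.0463) and MRPS25 (−0.43, adjusted p = 0.00629, limma). MRPS25 had 6852, 7074 and 6664 normalised reads in DMSO 48 h libraries, against 8924, 9828 and 8922 in DMSO 12 h libraries, without overlap. MRPS2 had 1387, 1559.5 and 1482 in GSI 48 h libraries against 1985, 2281 and 1887 in GSI 12 h libraries, and 1832, 1974 and 2117 in DMSO 48 h libraries against 2608, 2993 and 2870.4 in DMSO 12 h libraries. The MRPS2 groups did not overlap in either comparison. Without a replicate block MRPS2 was the single member called in all 4 comparisons, which share groups. Same-numbered libraries deviated together over time more than between treatments, and with the replicate block 20 members fell in GSI and 20 in DMSO (all genes called lower, 5.94% and 6.97%). With the block the falls included MRPL40 in both (−0.48 in GSI, −0.51 in DMSO, adjusted p = 0.0164 and 0.0106) and MRPL12 in DMSO (−0.67, adjusted p = 0.0275, limma). With the block set within each treatment, 52 members fell in GSI (all genes lower, 16.1%), and 47 fell and 1 rose in DMSO (15.2%). Without the block the calls depended on single libraries, again without the shares of all genes called in those fits beside them. In GSI libraries limma called 0 without the 12 h library numbered 2, 0 without the 48 h library numbered 1 and 0 without that numbered 3 (with 10, 8 and 15 at an unadjusted p under 0.05), 6 without the 12 h library numbered 3 and 4 without the 48 h library numbered 2. In DMSO libraries it called 1 when number 2 or 3 of the 12 h group or number 1 of the 48 h group was left out, and 2 without number 2 or 3 of the 48 h group, GSI 12 h number 1, or GSI 48 h number 1 or 3. At the upper end of the comparisons over time MRPS6 was at 0.11 in GSI and 0.26 in DMSO, MRPL16 at 0.072 in DMSO and MRPL52 at 0.11 in GSI, none of them called (limma adjusted p = 0.771, 0.375, 0.747 and 0.745).

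Over the 4 groups, 48 members had their means in the order GSI 48 h, GSI 12 h, DMSO 48 h and DMSO 12 h, counted upwards, and 15 more exchanged the middle groups. A single library, DMSO 12 h numbered 2, held the highest value of 50 members, and GSI 48 h numbered 1 held the lowest of 39. Between the groups at the ends of that order, GSI 48 h and DMSO 12 h, 61 members fell and 0 rose (all genes called, 18.4% lower and 15.8% higher), with a median log2 fold change of −0.54. Between the middle groups, DMSO 48 h over GSI 12 h, 1 member was called, MRPL55, at −0.34 (adjusted p = 0.0498, limma), where 6.28% of all genes were called lower and 5.53% higher, and the median was 0.13. Limma called 0 members without any of the DMSO 48 h or GSI 48 h libraries (4 to 20 at an unadjusted p under 0.05), and it called 16 when GSI 12 h number 2 was left out, all of them higher in DMSO 48 h. For these fits too the shares of all genes called are not given. With a replicate block 2 members were called lower and 19 higher in DMSO 48 h than in GSI 12 h (all genes, 12.9% lower and 14.4% higher). Both of these comparisons share groups with those above and are given side by side with them for that reason.

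Other genes of mitochondrial gene expression were examined as lists. Of 25 genes listed under mitoribosome assembly, 12 fell at 12 h and 6 at 48 h, with 0 rises and medians of −0.34 and −0.25. Both counts hold LYAR, which had the lowest fold changes of the list (−1.05 and −0.83, limma adjusted p = 0.00464 and 0.0247). Whether LYAR belongs on that list was not examined. The list also includes the GTPase MTG2 (−0.59 and −0.42), the RNA-binding FASTKD2 (−0.57 and −0.47) and the helicase DDX28 (−0.73 and −0.59). All 3 were called at both times (limma adjusted p at 12 h 0.00395, 0.00403 and 0.00523). Of 16 translation factors, 2 fell at each time, GFM1, an elongation factor, at both (−0.53 and −0.44), SLIRP at 12 h (−0.69) and the initiation factor MTIF2 at 48 h (−0.52). Of 17 mitochondrial aminoacyl-tRNA synthetases, which charge tRNAs, 4 fell at 12 h and 3 at 48 h, led by MARS2 with 1868 ± 397 normalised reads in GSI 12 h and 4019 ± 546 in DMSO 12 h (SD, n = 3 each; log2 fold change −1.12 at 12 h and −0.90 at 48 h, limma adjusted p = 0.00246 and 0.0112). Of 15 genes that copy and transcribe mitochondrial DNA, 7 fell and 1 rose at 12 h, and 2 fell and 1 rose at 48 h. The helicase TWNK fell at both times (−1.03 and −0.57), the RNA polymerase POLRMT at 12 h (−0.53) and the packaging factor TFAM at both (−0.47 and −0.36), while the DNA polymerase POLG, named after its value was seen, rose at 12 h (0.58) and the topoisomerase TOP1MT at 48 h (0.54). Of 19 genes of protein import and folding, 11 fell and 1 rose at 12 h and 7 fell at 48 h, with medians of −0.49 and −0.35. Among them was the import channel TOMM40 (−0.89 and −0.69), and the lowest values of the list were −0.89 at 12 h and −0.92 at 48 h. Of 6 genes listed as mitoribosomal proteins with other symbols 2 fell at each time, AURKAIP1 (−0.49 and −0.47) and GADD45GIP1 (−0.66 and −0.68). The list also holds OXA1L, its 1 gene above 0 at each time (0.30 and 0.21, limma adjusted p = 0.142 and 0.33). Whether OXA1L belongs on that list was not examined. The shares called are to be read against 11.4% of all genes lower at 12 h and 5.35% at 48 h.

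**Figure D4:**
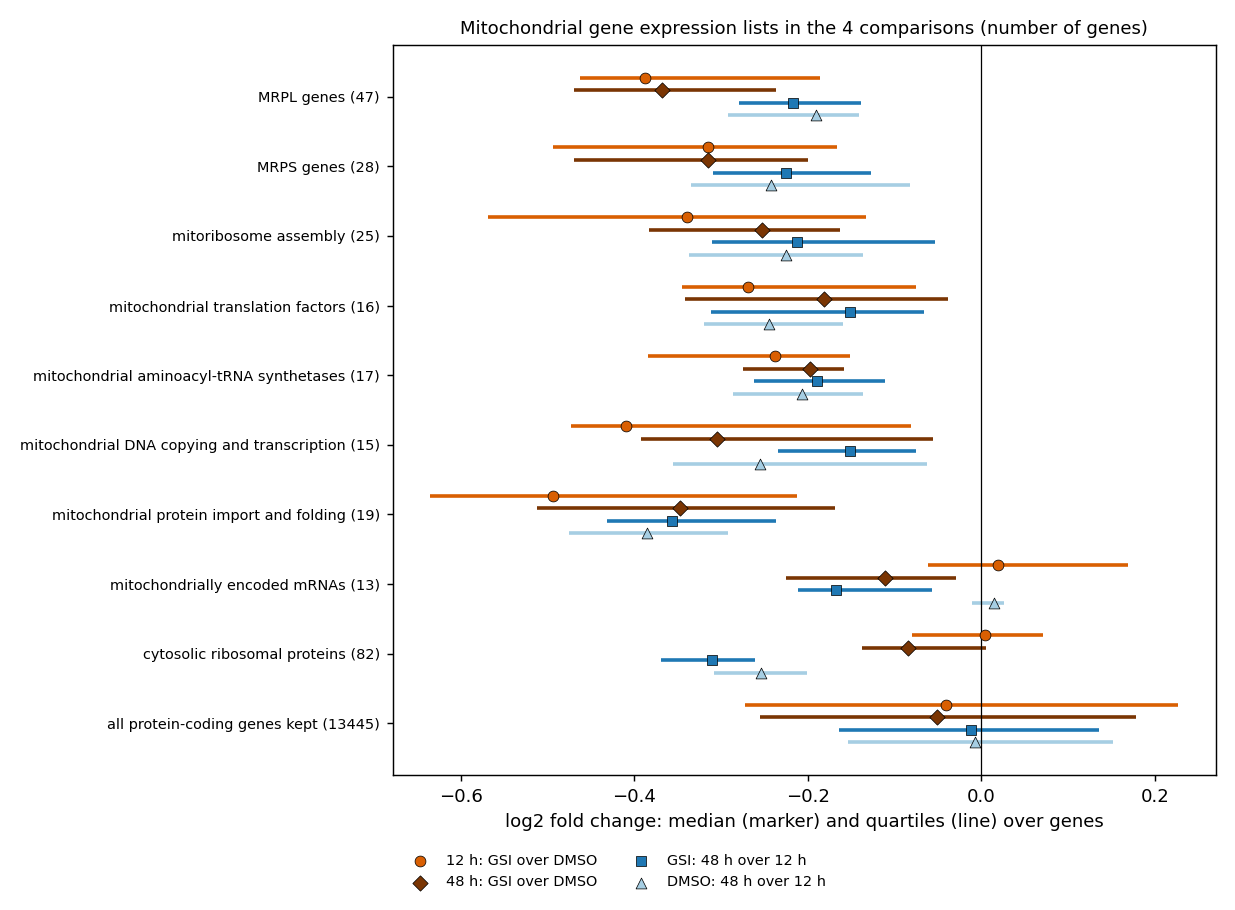
Median (marker) and quartiles (line) of the log2 fold change over the genes of each list, with the number of genes in parentheses, in the comparisons of GSI over DMSO at 12 h and 48 h and of 48 h over 12 h in GSI and in DMSO. MRPL and MRPS genes, their assembly factors and the import genes lie left of 0 in all 4 comparisons, whereas cytosolic ribosomal protein genes lie near 0 between treatments (medians 0.0046 and −0.084) and left of 0 between times (−0.31 and −0.25).

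The mRNAs that the mitoribosome translates were examined next. Of the 13 mRNAs encoded in mitochondrial DNA, 1 fell at 12 h (7.69%, all genes lower 11.4%) and 2 at 48 h (15.4%, all genes lower 5.35%), with medians of 0.019 and −0.11. MT-ND1, a complex I subunit, had 87689.7 ± 26539 in GSI 12 h and 134307 ± 5877 in DMSO 12 h, and 87315 ± 16812 in GSI 48 h and 135097 ± 3029.5 in DMSO 48 h (SD, n = 3 each; log2 fold change −0.66 and −0.65, limma adjusted p = 0.0177 and 0.0347), and MT-ND2 fell at 48 h (−0.57). The other 11 were not called at either time, among them, named after its values were seen, MT-CO1 (0.01 and −0.11), the catalytic subunit of cytochrome oxidase. Poly-A selection reads these RNAs through their short tails, and tail length was not measured, while nuclear copies of mitochondrial genes can share their reads. Of 82 genes of the cytosolic ribosome, 5 fell and 1 rose at 12 h and 4 fell at 48 h, with medians of 0.0046 and −0.084. Over time their medians were −0.31 in GSI (20 fell, all genes lower 2.37%) and −0.25 in DMSO (7 fell, all genes lower 2.51%). These were larger in size than the members' −0.22 and −0.21, and this difference between the 2 ribosomes was not tested. Of 16 NOTCH1 targets, 7 fell at 12 h and 3 at 48 h (medians −0.49 and −0.35). Over time 12 of them fell in GSI and 11 in DMSO (medians −1.40 and −1.72), against the same 2.37% and 2.51% of all genes. Of 10 regulators of mitochondrial genes, 6 fell at 12 h and 1 at 48 h. PPRC1, a coactivator, had 10250.2 ± 1913 in GSI 12 h and 18759 ± 511 in DMSO 12 h (SD, n = 3 each; −0.89, and −0.53 at 48 h), and MYC and YY1 fell at 12 h (−0.53 and −0.36). GABPA, the DNA-binding part of GABP, fell at 12 h (−0.27, adjusted p = 0.0326, limma), at −0.18 at 48 h, and NRF1 was at −0.18 and −0.04 (adjusted p = 0.147 and 0.768, limma), and both were picked with their values known.

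Of the 35 members with no exon under another gene, 20 were called lower at 12 h and 14 at 48 h, with median log2 fold changes of −0.41 and −0.43. The medians were −0.26 and −0.28 for the 40 members with such exons, so the median fall was larger in the members without shared exons.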

How the data were processed

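Poly-A RNA-seq of 12 CUTLL1 libraries in 4 groups of 3 was taken from the authors' deposited table, whose values are a signal, namely gene counts divided by a size factor per library, as their spacing shows. The submitters' processing notes name the build hg19, HTSeq 0.6.1, TopHat2 2.0.10, DESeq2 and FastQC 0.10.1. Whole reads were recovered from the spacing of each library's values, and 100% of values came within 0.01 of a whole read. Symbols, biotypes and exon lengths were matched by identifier through GENCODE release 29, and promoters were read from a RefSeq table of GRCh38.p14. Genes that reached a value of 10 in 3 or more libraries entered the tests, log2(value + 1) was fitted over all 12 libraries with limma 3.58.1 (R 4.3.3, prior with a trend), and p-values were adjusted after Benjamini-Hochberg over all 19281 genes. Fold changes on this scale understate those of low genes. As alternatives, edgeR 4.0.16 (quasi-likelihood) and DESeq2 1.42.0 were run on the recovered reads, and pseudocounts, filters, scalings, single left-out libraries and the replicate number as a block were varied. EdgeR called 4201 of all genes at 12 h and 1919 at 48 h, against 4144 and 1866 by limma. Deviations of same-numbered libraries from their group means correlated at 0.400 to 0.545 over time in GSI and at 0.545 to 0.612 over time in DMSO. The data therefore point to pairing over time, the labels giving no more than the shared number. The main fit over all 12 libraries did not use this pairing, and the fits with a replicate block did. Between treatments the correlations were 0.103, 0.157 and 0.104 at 48 h and 0.096, 0.272 and 0.068 at 12 h. These weak values do not show whether the GSI and DMSO libraries were paired at either time. Named members were, per comparison and subunit, the 4 lowest and 2 highest fold changes, the extremes of level per kb, and members with a stated role, and of the other lists up to 3 genes of smallest p per treatment comparison. The members and lists were chosen with earlier results of these data known. The fits were checked on simulated data.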

Additional observations from a re-analysis of the deposited data

How the results depend on the processing

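The member medians kept their sign in the 4 comparisons between treatments and between times under every alternative run, with ranges over single left-out libraries of −0.44 to −0.27 at 12 h, −0.43 to −0.28 at 48 h, −0.31 to −0.12 over time in GSI and −0.29 to −0.15 over time in DMSO. Upper-quartile scaling moved them to −0.28 at 12 h and −0.24 at 48 h, and it moved the median of all genes by 0.089 at 12 h, 0.085 at 48 h and 0.130 between GSI 48 h and DMSO 12 h. The counts of calls depended on the fit more than the medians did, and the causes were not tested unless stated. No shares of all genes called stand beside the counts in this paragraph. Changes in these counts are therefore not shown to be particular to the members. With a replicate block the members called were 51 at 12 h, 50 at 48 h, 20 over time in GSI, 20 over time in DMSO and 21 between DMSO 48 h and GSI 12 h, and with the block within treatment 52 over time in GSI and 48 over time in DMSO. Between treatments, at 12 h as at 48 h, same-numbered samples share a number and correlate only weakly. The block gave 0 calls for the difference between the treatment effects. With only the groups compared in the fit, and so fewer libraries, limma called 15 at 12 h, 0 over time in GSI (16 at an unadjusted p under 0.05), 10 over time in DMSO and 0 between DMSO 48 h and GSI 12 h (13 at an unadjusted p under 0.05), and this setting could not be run for the difference between effects. DESeq2 called 6 over time in GSI, 8 over time in DMSO and 3 between DMSO 48 h and GSI 12 h, where edgeR called 2, upper-quartile scaling gave 2, and a pseudocount of 0.1 or a filter of any value above 0 gave 0 (17 at an unadjusted p under 0.05). That filter gave 2 over time in DMSO. With number 2 of both GSI groups left out, a setting chosen after seeing the data, the counts were 47 at 48 h, 0 over time in GSI (18 at an unadjusted p under 0.05), 10 over time in DMSO and 24 between DMSO 48 h and GSI 12 h. Over single left-out libraries the counts were 8 to 47 at 12 h, 0 to 35 at 48 h, 0 to 6 over time in GSI, 1 to 6 over time in DMSO, 0 to 16 between DMSO 48 h and GSI 12 h, 43 to 63 between GSI 48 h and DMSO 12 h, and 0 throughout for the difference between effects. The median of MRPL minus that of MRPS genes ranged over them from −0.12 to −0.026 at 12 h, −0.075 to −0.017 at 48 h, −0.017 to 0.019 over time in GSI, 0.018 to 0.052 over time in DMSO, −0.13 to −0.038 between GSI 48 h and DMSO 12 h, 0.012 to 0.055 between DMSO 48 h and GSI 12 h and −0.066 to −0.00041 for the difference between effects. With means in place of medians it was −0.035 at 12 h, −0.0088 over time in DMSO and 0.0048 for the difference between effects, and with MRPS30 and MRPS18A in the large subunit it was 0.0030 at 48 h and −0.0039 between DMSO 48 h and GSI 12 h. With both GSI libraries 2 left out it was −0.099 at 12 h, −0.13 between GSI 48 h and DMSO 12 h and 0.055 between DMSO 48 h and GSI 12 h. Named members that changed sign all lay near 0 and were never called there. Under upper-quartile scaling they were MRPL44 at 12 h (0.042), MRPL22 over time in DMSO (0.031) and MRPS36 over time in GSI (0.018, and 0.0069 with both GSI libraries 2 left out). With each library left out in turn the values ran from −0.081 to 0.065 for MRPL22 over time in DMSO, −0.11 to 0.0023 for MRPL44 at 12 h, −0.084 to 0.072 for MRPS36 over time in GSI and −0.012 to 0.16 in DMSO, −0.047 to 0.25 for MRPS6 over time in GSI, −0.043 to 0.11 for MRPL38 at 48 h and −0.0099 to 0.049 for MRPS25 at 48 h. The member with the lowest level, MRPL53, averaged 290.0 on the deposited scale, and what depth adds to the error was not tested.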
